A study of Mus musculus with 15 samples.

Results

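Glycolysis and the hypoxia response were followed through 35 genes, out of 25292 in the count table, in embryonic mouse pancreas. The genes were chosen by name for their known roles, with no threshold on a measured value but with earlier results of these data known. They comprise 21 glycolytic genes, which cover glucose uptake, the enzymes from hexokinase to lactate dehydrogenase, their regulators and lactate export, and 14 other genes of the pathway of the hypoxia-inducible factors (HIFs), which are 2 of the factors themselves (Hif1a and Epas1), hydroxylases and other targets. All 35 passed the filter on low counts, so no member was left out of a test.

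Glycolysis splits glucose into pyruvate in the cytosol and yields ATP without oxygen when the pyruvate is reduced to lactate. The alpha subunits of the HIFs are marked for destruction by oxygen-dependent prolyl hydroxylases of the Egln family, escape this when oxygen is short, and with their partner Arnt bind a short DNA core, the hypoxia response element, near genes for glucose use, vessel growth, pH control and matrix hydroxylation. Many glycolytic enzymes are HIF targets, but other pathways also control them, and embryonic and proliferating tissues run glycolysis in the presence of oxygen.

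Poly(A) RNA was sequenced from 15 libraries in 5 groups of 3, all of strain C57/Bl6J. Pancreata of wild-type (wt) embryos and of embryos labelled S1pr2 null were taken fresh at 14.5 days post coitum (dpc). Dorsal bud explants of wt from that stage were kept for 2 days in serum-free air-liquid interface culture, on a filter between medium and air. The medium was normal medium (control), or held 15 μM of the S1pr2 antagonist JTE013 (JTE), or 15 μM JTE013 and 50 ng/ml of the secreted protein CTGF (JTE + CTGF). By the methods of the study, controls had an equal amount of solvent where appropriate. Whether these controls did is not stated. S1pr2 is a receptor for the signalling lipid sphingosine-1-phosphate, and the null allele (S1pr2 tm1Rlp) carries a Neo cassette in the first exon in all cells, whereas the antagonist acted on explants only. Each library pooled up to 3 organs or explants, no group carried the null allele and the antagonist together, and no group had CTGF alone. Counts per gene cannot show whether the disrupted exon was read, so they did not check the genotype label, and the libraries labelled S1pr2 null held 1486, 1368 and 1609 S1pr2 reads and the wt libraries 858, 796 and 812. Every direction given for the libraries labelled S1pr2 null rests on that label. Pancreas markers (7 genes) had summed normalised reads of 30005 to 41465 in wt, 18358 to 19183 in the libraries labelled S1pr2 null, 81717 to 109030 in control, 84089 to 163720 in JTE and 137030 to 157500 in JTE + CTGF. The sums weigh genes by their reads and do not stand for each marker. At an edgeR adjusted p below 0.05, 0 were higher and 2 lower with the null label, and 3 and 2 in control against wt. Against control, 1 was higher and 2 lower in JTE, and 2 and 4 in JTE + CTGF.

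Between 11402804 and 13828737 reads per library were assigned to genes, and 16245 genes were tested. The deposited values are raw counts of uniquely aligned reads. Normalised reads are these counts scaled to the mean effective size of the libraries (TMM factors of edgeR), errors on them are SDs over 3 libraries, and a gene was called at an edgeR adjusted p below 0.05. Reads that fit several loci are absent from such counts, and several glycolytic genes have near-identical copies elsewhere in the genome. Of the 50-base words in the reference transcripts, 68.0% for Pgk1, 58.4% for Gapdh, 49.5% for Eno1 and 41.5% for Pgam1 also occur in other genes, and Gapdh held 39 to 98 reads per library. Values for these 4 genes are uncertain and no level of theirs is compared with another gene. The share was 20.7% for Bnip3, 18.6% for Gpi1, 18.4% for Pkm, 10.4% for Ldha, 8.46% for Aldoa, 6.83% for Tpi1, 5.02% for Higd1a and at most 0.512% for the other 24. Genes that overlap on either strand can also share reads, since use of the strand in counting was not stated. This concerned 28.94% of the counted bases of Ankrd37, 9.29% of those of Car9, 8.43% for Ndrg1 and 5.6% for Hif1a. For every other member it was at most 3.96%, the value of Pfkp.

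The core of the hypoxia response element is the motif searched here, as ACGTG and, apart from it, as GCGTG, each on both strands. Promoter windows from 250 bases before to 50 bases after the RefSeq start (GRCm38.p6) were found for 33 of the 35 genes, all but Epas1 and Ndrg1. ACGTG was present in a window of 23 of the 33 genes, which are 13 of 21 glycolytic and 10 of 12 other HIF pathway genes, and in 26 of their 49 windows (53.1%), against 19.6% of all 32851 windows of the table. GCGTG was present in 27 of the 49 windows (55.1%) against 32.4% of all windows. The genes were listed by name, many of them as known HIF targets, so these shares describe the list and test nothing about it. Both motifs can lie in 1 window, and an ACGTG preceded by C is an E-box as well. The sites printed here belong to the 4 genes with ACGTG that fell most and the 4 that rose most after JTE013, chosen after these values were known, and are shown because such a core stands near the start of genes that moved in opposite directions. Each is written 5′ to 3′ on the strand of the gene with 10 bases on either side where the window allows, and capitals mark the core or its complement.

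The genes that fell held these sites. Car9 has its core 18 bases before the start (chr4:43506998-43507022, plus strand), Ankrd37 at 241 and 6 bases before it (chr8:46000077-46000100 and chr8:45999842-45999866, minus strand), Slc16a3 at 27 and 14 bases before it (chr11:120949030-120949054 and chr11:120949043-120949067, plus strand), and Egln3 at 229 bases before it (chr12:54204089-54204113, minus strand).
Car9: atttccgatgCACGTacagcccgtc
Ankrd37: cccagcagtACGTGcctagctcgg
Ankrd37: gtgtttgggtACGTGaggccgcagc
Slc16a3: ggcagcggtgACGTGcgcgggggac
Slc16a3: tgcgcgggggACGTGccgcgcgacg
Egln3: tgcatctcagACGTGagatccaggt

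The genes that rose held the next sites. Hk2 has cores 226 and 52 bases before the start (chr6:82774666-82774690 and chr6:82774492-82774516, minus strand), and P4ha2 has a core 78 bases before it and another from the base numbered 11 after it (chr11:54100836-54100860 and chr11:54100924-54100948, plus strand). The window of Vegfa at its first listed start held no ACGTG and that at its other start held a core 211 bases before (chr17:46025360-46025384, minus strand). Hk1 held cores from bases 8 and 17 after its other start (chr10:62340400-62340424 and chr10:62340391-62340415, minus strand).
Hk2: ccacggaacaCACGTcccaactctg
Hk2: tgagcacatcCACGTcactgtccgg
P4ha2: tgcatcgcatACGTGcagcgcgtgg
P4ha2: ggaggtggggACGTGgcggaggctc
Vegfa: agtgcgtgccCACGTcagagagcaa
Hk1: cgcgctccttACGTGgggaacgtgc
Hk1: tacgtggggaACGTGcagggtgatg
Eno2, Gpi1 and Tpi1 had neither motif in a window, and Pfkp, Pfkl, Pfkfb4, Pdk1, Kdm3a, Eno1 and Adm had GCGTG alone. A match is a run of letters in the reference, and no binding was measured.

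In fresh wt pancreas the levels of the 35 genes per length spanned a wide range. Levels are given as RPKM, the reads divided by the counted length and the effective library size. The counted length joins all annotated exons of a gene and can exceed the length of a transcript. It was 8532 bases for Hk1, 5969 for Hk2 and 9395 for Pfkp. Rankings between genes depend on these lengths, and levels of genes with a long counted length may be understated. Among the glycolytic genes without heavy sequence sharing, Pkm, the last enzyme of the pathway, was highest at 322 ± 11.4 RPKM (SD, n = 3). Tpi1 followed at 186 ± 19.0, Ldha at 155 ± 17.5 and Aldoa at 142 ± 15.1 RPKM. Within each wt library Tpi1 stood above Ldha and Ldha above Aldoa, though their ranges over the libraries overlapped. Gpi1 stood at 51.9 ± 3.62 RPKM, Pfkl at 44.9 ± 5.37, Slc2a1 at 29.7 ± 2.32 and Pfkm at 20.4 ± 1.09. Low levels were those of Pfkfb3 at 5.73 ± 0.624, Slc16a3 at 2.77 ± 0.455 and Pfkfb4 at 1.95 ± 0.185 RPKM. The regulator Pdk1 was higher at 13.4 ± 1.54 RPKM, and the enzyme Pfkp was lower at 1.32 ± 0.124 RPKM.

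Of the other HIF pathway genes in wt pancreas, Vegfa, the growth factor for vessels, was highest at 30.2 ± 0.829 RPKM (SD, n = 3). Car9, a carbonic anhydrase of the cell surface, at 25.9 ± 5.32 RPKM overlapped it in spread but lay below it within each wt library. Egln1 and Hif1a at 22.7 ± 1.09 and 22.3 ± 1.41 RPKM did not differ beyond their spread, and neither did Kdm3a, P4ha1 and Ndrg1 at 13.7 ± 0.132, 13.7 ± 1.19 and 13.6 ± 1.68. Epas1 at 9.06 ± 0.443 and Higd1a at 8.81 ± 0.262 RPKM came next, and Adm, a vasodilator peptide, was lowest at 0.841 ± 0.0589 RPKM.

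**Figure D1:**
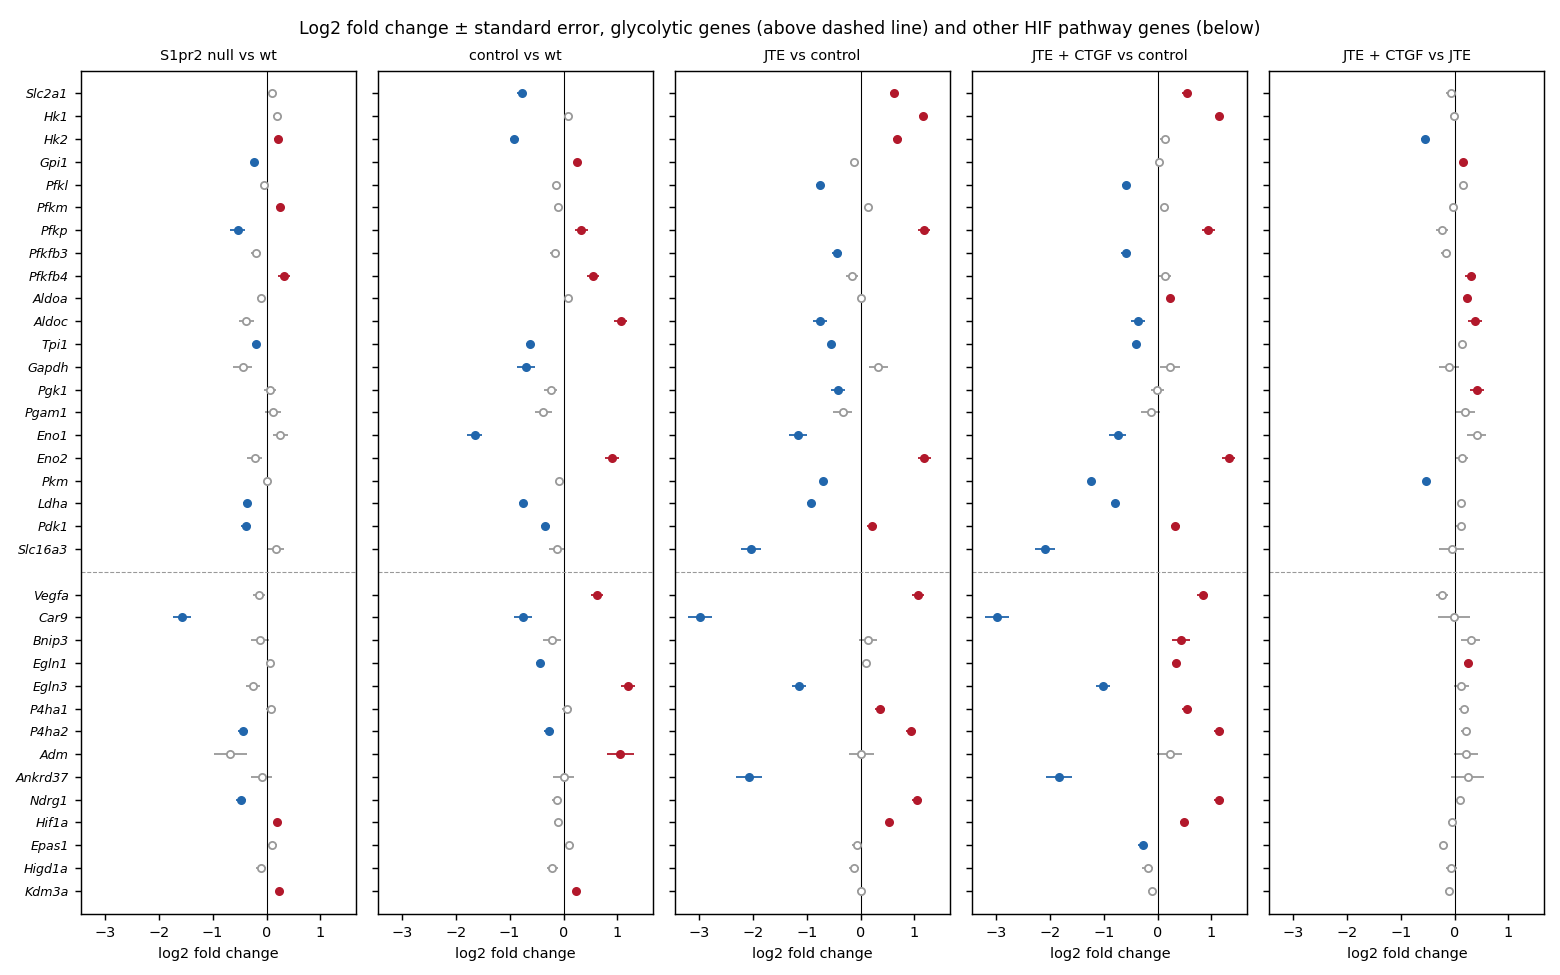
Log2 fold change (horizontal axis) of the 21 glycolytic genes, above the dashed line, and the 14 other HIF pathway genes, below it, in the 5 comparisons; bars are standard errors, filled red points were called higher, filled blue points lower and open grey points were not called. Car9 lies left of 0 in the first 4 panels, and most points of the last panel are open and near 0.

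The comparison of fresh pancreata labelled S1pr2 null with wt asked what differs with the genotype label. Car9, a carbonic anhydrase, fell most, Ldha, Pdk1, Gpi1, Tpi1 and Pfkp fell by smaller steps, and Pfkm, Kdm3a and Hif1a rose. Of the 21 glycolytic genes 3 were called higher and 5 lower, and of the 14 other HIF pathway genes 2 higher and 3 lower, against 12.6% of all genes called higher and 13.3% called lower. The median log2 fold change was −0.04 for the glycolytic and −0.11 for the other HIF pathway genes, and −0.01 for all genes tested. No overlap between the groups was seen for 11 glycolytic and 7 other genes, against 46.3% of all genes.

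Car9 held 588, 895 and 763 normalised reads in the 3 wt libraries and 235, 215 and 301 in those labelled S1pr2 null. The groups did not overlap, and the mean fell from 748 ± 154 to 250.3 ± 45.1 (SD, n = 3 each, log2 fold change of −1.57 with SE 0.17, edgeR adjusted p = 5.2e-06). Ndrg1, a stress-responsive cytoplasmic protein, fell with 1026, 1286 and 1071 reads in wt against 737, 869.8 and 817 (log2 fold change of −0.48 with SE 0.09, edgeR adjusted p = 0.0012). P4ha2, a catalytic subunit of the collagen prolyl hydroxylase, fell by a similar step (log2 fold change of −0.44 with SE 0.09, edgeR adjusted p = 0.0023). For both genes every library labelled S1pr2 null lay below every wt library. Kdm3a, a histone demethylase, rose (log2 fold change of 0.24 with SE 0.06, edgeR adjusted p = 0.0066). Hif1a held 1761, 1554 and 1637 reads in wt and 1813, 1885 and 1987 in the libraries labelled S1pr2 null (log2 fold change of 0.20 with SE 0.07, edgeR adjusted p = 0.043). That call was not made without wt 2, wt 3, S1pr2 null 2 or S1pr2 null 3. Nor was it made without control 2, JTE 2 or JTE + CTGF 2 (edgeR adjusted p 0.0512 to 0.181 over these fits). With the replicate number as a block in the fit it was not made either (edgeR adjusted p = 0.053). In each of these fits the count of other HIF pathway genes called higher was 1.

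On the glycolytic side, Ldha, which reduces pyruvate to lactate, held 5060, 6336 and 5945 normalised reads in wt and 4404, 4541 and 4511 in the libraries labelled S1pr2 null (log2 fold change of −0.37 with SE 0.06, edgeR adjusted p = 0.00055). Its groups did not overlap, and wt varied more than the other group. Pdk1, the kinase that switches off pyruvate dehydrogenase, fell (log2 fold change of −0.38 with SE 0.08, edgeR adjusted p = 0.0032), as did Gpi1, the isomerase after hexokinase (log2 fold change of −0.23 with SE 0.05, edgeR adjusted p = 0.0055). The largest fall was that of Pfkp, the platelet type of phosphofructokinase (log2 fold change of −0.54 with SE 0.14, edgeR adjusted p = 0.0074), a gene of low level in fresh tissue. Tpi1 fell by a small step (log2 fold change of −0.20 with SE 0.07, edgeR adjusted p = 0.043), a call not made without wt 2, wt 3, S1pr2 null 1, S1pr2 null 2, S1pr2 null 3, control 2, JTE 1 or JTE + CTGF 3 (edgeR adjusted p 0.0504 to 0.223). Pfkm, the muscle type of phosphofructokinase, rose (log2 fold change of 0.25 with SE 0.07, edgeR adjusted p = 0.01). The rises of Pfkfb4 and Hk2 were less firm. Pfkfb4, 1 of the enzymes that set the level of the allosteric activator of phosphofructokinase, was called (log2 fold change of 0.32 with SE 0.11, edgeR adjusted p = 0.042), but not without wt 1, wt 2, S1pr2 null 1 or S1pr2 null 2 (edgeR adjusted p 0.0992 to 0.16), or with DESeq2 or with no filter on low counts (adjusted p 0.106 to 0.112). Hk2 (log2 fold change of 0.21 with SE 0.07, edgeR adjusted p = 0.043) was not called without wt 1, wt 2, S1pr2 null 1, S1pr2 null 2, S1pr2 null 3, control 2, JTE 1 or JTE + CTGF 2 (edgeR adjusted p 0.051 to 0.198), or with DESeq2 (adjusted p = 0.0517). With a replicate block in the fit neither Pfkfb4 nor Hk2 was called (edgeR adjusted p = 0.0572 and 0.0541). Glycolytic genes called higher accordingly numbered 1 without wt 1, S1pr2 null 1 or S1pr2 null 2, with DESeq2 and with that block.

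Cell type markers and stress targets moved with this comparison. All 8 endocrine markers and 5 of 6 epithelial markers were lower in the libraries labelled S1pr2 null, with summed normalised reads of 13790 to 15648 against 26752 to 29472 for the endocrine list and 17173 to 18143 against 23537 to 25530 for the epithelial list. The endothelial sum was 7351.1 to 7410.9 against 6845.4 to 7057.6, and the leukocyte sum 1372.9 to 1534.5 against 1545.6 to 1554.5. Of 8 mesenchymal markers 2 were higher and 4 lower. Of 16 targets of the stress factor ATF4, which are followed here beside the cell type markers, 7 were lower, with a sum of 9793.2 to 10275 against 12685 to 14523 reads. Fewer cells of a type and less RNA per cell cannot be told apart in such bulk samples, and the part of these shifts in the results above was not tested.

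The comparison of control explants after 2 days with fresh wt pancreas gives the change over time in culture, in which age, culture and the part of the organ taken cannot be told apart. The glucose transporter Slc2a1, hexokinase Hk2 and lactate dehydrogenase Ldha fell, the brain-type isoenzymes of aldolase and enolase rose, and among the HIF targets Egln3, Adm and Vegfa rose while Car9 and Egln1 fell. Of the glycolytic genes 5 were called higher and 7 lower, and of the other HIF pathway genes 4 higher and 3 lower, while 28.5% of all genes were called higher and 29.3% lower. The medians were −0.13 for the glycolytic, −0.05 for the other HIF pathway and −0.02 for all genes. Groups were apart for 15 glycolytic and 7 other genes, against 63.8% of all genes.

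Slc2a1, the main glucose transporter of embryonic tissue, held 977, 1143 and 1069 normalised reads in wt and 587, 655 and 615 in control (log2 fold change of −0.78 with SE 0.08, edgeR adjusted p = 3.1e-07). Hk2, an inducible hexokinase, held 659.8, 768 and 785 reads in wt and 378, 403 and 395 in control (log2 fold change of −0.91 with SE 0.08, edgeR adjusted p = 3.4e-08). Neither gene had any control library near the wt range. Ldha fell from 5780.3 ± 654 to 3415 ± 117 reads (SD, n = 3 each, log2 fold change of −0.76 with SE 0.07, edgeR adjusted p = 4e-08) and Tpi1 likewise (log2 fold change of −0.63 with SE 0.07, edgeR adjusted p = 8e-07). Eno1 had the largest fall (log2 fold change of −1.65 with SE 0.15, edgeR adjusted p = 6.1e-08) but is uncertain for its copies, and wt 1 held 1323 reads where the other wt libraries held 2398 and 2047. The fall of Eno1 was called in every alternative fit, also without wt 1. Gapdh also fell (log2 fold change of −0.70 with SE 0.17, edgeR adjusted p = 0.0026) on few reads, and Pdk1 fell (log2 fold change of −0.34 with SE 0.08, edgeR adjusted p = 0.0025).

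Aldoc, the brain type of aldolase, rose from 219, 261 and 231 reads in wt to 549, 475 and 458 in control (log2 fold change of 1.06 with SE 0.13, edgeR adjusted p = 2.2e-06). Eno2, the neuronal enolase, held 135, 177 and 154 reads in wt and 260.1, 296 and 317 in control (log2 fold change of 0.91 with SE 0.13, edgeR adjusted p = 1.8e-05). In both genes the lowest control library exceeded the highest wt library. Pfkfb4 (log2 fold change of 0.55 with SE 0.11, edgeR adjusted p = 0.00042) and Gpi1 (log2 fold change of 0.25 with SE 0.05, edgeR adjusted p = 0.00091) rose less. Pfkp was called (log2 fold change of 0.33 with SE 0.13, edgeR adjusted p = 0.033) but not without wt 1, wt 3, control 2 or control 3 (edgeR adjusted p 0.0637 to 0.105). Of 6 neural crest markers 2 were higher and 1 lower, with a summed level of 1004.3 to 1133 against 829.6 to 882 reads, and their part in these rises was not tested.

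Egln3, a prolyl hydroxylase that is itself a HIF target, held 85.5, 119.7 and 108 normalised reads in wt and 213, 241 and 265 in control (log2 fold change of 1.2 with SE 0.12, edgeR adjusted p = 3.8e-07). Vegfa rose with 1587, 1674 and 1614 reads against 2497, 2818 and 2163 (log2 fold change of 0.62 with SE 0.11, edgeR adjusted p = 0.00012). Adm rose on low counts, from 15.3, 13.4 and 15.0 reads to 31.9, 34.2 and 25.0 (log2 fold change of 1.05 with SE 0.25, edgeR adjusted p = 0.0018). In all 3 genes each control library lay above each wt library. Kdm3a rose by a small step (log2 fold change of 0.23 with SE 0.06, edgeR adjusted p = 0.0033). Car9 fell, with 451, 521 and 356 reads in control against 588, 895 and 763 in wt (log2 fold change of −0.76 with SE 0.16, edgeR adjusted p = 0.0007), and Egln1, the main hydroxylase of HIF in most cells, fell too (log2 fold change of −0.44 with SE 0.06, edgeR adjusted p = 1.7e-05). P4ha2 was called lower (log2 fold change of −0.26 with SE 0.09, edgeR adjusted p = 0.023) though the groups overlapped, and not without wt 2, wt 3, control 1 or control 3 (edgeR adjusted p 0.0677 to 0.122), or with only the libraries compared in the fit (adjusted p = 0.0573). The factors themselves were not called, with 1529 ± 46.3 reads of Hif1a in control and 1650.3 ± 104 in wt (SD, n = 3 each, edgeR adjusted p = 0.19), and 648 ± 60.8 against 604 ± 29.5 reads of Epas1 (edgeR adjusted p = 0.32).

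Erythroid markers were lower in culture for all 8 genes, with a summed level of 187 to 449 against 14115 to 16685 normalised reads. Leukocyte markers were higher for 5 of 6 genes (3114.8 to 3376 against 1545.6 to 1554.5 reads), epithelial markers for 4 of 6 (33746 to 37999 against 23537 to 25530), and 4 of 8 endothelial markers were higher and 3 lower (6909.8 to 8369.7 against 6845.4 to 7057.6). The endocrine sum was 58907 to 67448 against 26752 to 29472 reads, with 3 of 8 markers higher, and of 8 mesenchymal markers 5 were higher and 2 lower. Of the 16 ATF4 targets 14 were higher and 1 lower, with a sum of 20730 to 25187 against 12685 to 14523 reads. The part of these lists in the changes of the 35 genes was not tested.

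The comparison of JTE with control explants asked what the antagonist changed in culture. Reads of Slc16a3, Ldha, Pkm and Pfkl fell, and those of Slc2a1, Hk1, Hk2, Pfkp and Eno2 rose. The HIF targets split, with Car9, Ankrd37 and Egln3 lower and Vegfa, Ndrg1 and P4ha2 higher. Of the glycolytic genes 6 were called higher and 9 lower, and of the other HIF pathway genes 5 higher and 3 lower, while 25.9% of all genes were called higher and 26.2% lower. Median log2 fold changes were −0.16 for the glycolytic, 0.06 for the other HIF pathway and 0 for all genes. The groups did not overlap for 16 glycolytic and 9 other genes, against 56.7% of all genes.

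**Figure D2:**
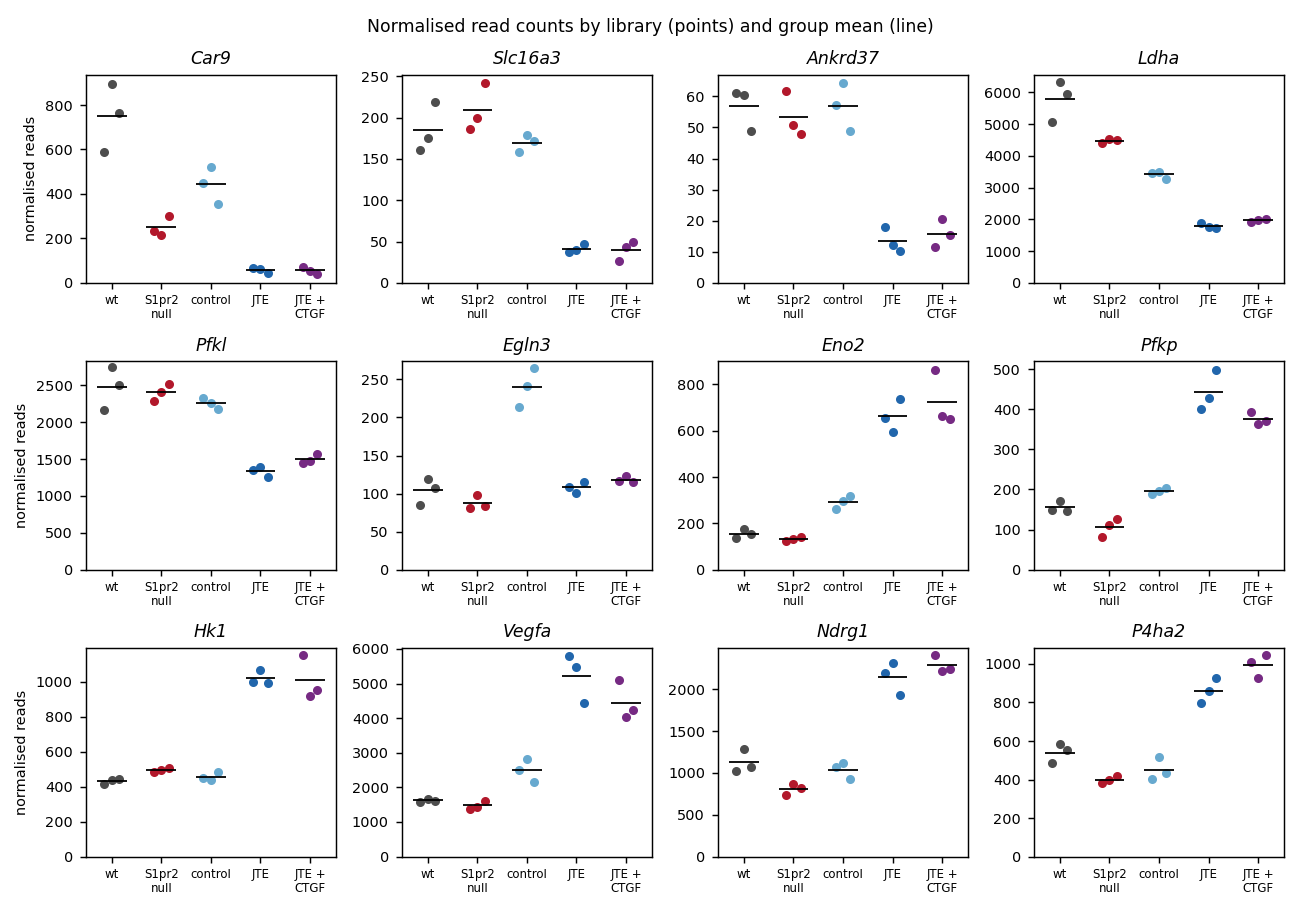
Normalised reads (vertical axes, from 0) of 12 genes in each of the 15 libraries (points) with the mean of each group of 3 (line). The JTE and JTE + CTGF libraries lie below all control libraries for Car9, Slc16a3, Ankrd37, Ldha, Pfkl and Egln3, and for Eno2, Pfkp, Hk1, Vegfa, Ndrg1 and P4ha2 they lie above them.

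Among the genes of uptake and the first steps, Slc2a1 held 587, 655 and 615 normalised reads in control and 874, 893 and 1082 in JTE (log2 fold change of 0.62 with SE 0.08, edgeR adjusted p = 6.8e-06). Hk1, the constitutive hexokinase, held 451, 436 and 483 reads in control and 997, 1069 and 991 in JTE (log2 fold change of 1.16 with SE 0.08, edgeR adjusted p = 3.2e-09). Hk2 held 378, 403 and 395 against 628, 588 and 671 reads (log2 fold change of 0.68 with SE 0.08, edgeR adjusted p = 1.9e-06). No JTE library of these 3 genes fell within the control range. Pfkl, the liver type of phosphofructokinase and the main one here, fell from 2324, 2264 and 2184 reads to 1353, 1399 and 1261 (log2 fold change of −0.76 with SE 0.07, edgeR adjusted p = 2.8e-07), whereas Pfkp rose from 189, 195 and 203 to 401, 428 and 499 (log2 fold change of 1.18 with SE 0.12, edgeR adjusted p = 3.6e-07). The reads of the phosphofructokinases therefore moved in opposite directions between the same libraries. Pfkfb3 fell as well (log2 fold change of −0.44 with SE 0.09, edgeR adjusted p = 0.00062).

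In the middle of the pathway, Aldoc fell (log2 fold change of −0.75 with SE 0.13, edgeR adjusted p = 9.7e-05), while Aldoa, which supplied most aldolase reads, held 5224 ± 222 reads in control and 5279 ± 16.2 in JTE (SD, n = 3 each, edgeR adjusted p = 0.86). Tpi1 fell (log2 fold change of −0.54 with SE 0.07, edgeR adjusted p = 7.2e-06). Eno1 fell from 589, 625 and 619 reads to 287, 279 and 259 (log2 fold change of −1.16 with SE 0.17, edgeR adjusted p = 2.2e-05) and Eno2 rose from 260.1, 296 and 317 to 654, 593 and 738 (log2 fold change of 1.19 with SE 0.12, edgeR adjusted p = 3.3e-07). Both enolases separated the groups, though the level of Eno1 is uncertain. Pgk1 was called lower (log2 fold change of −0.42 with SE 0.13, edgeR adjusted p = 0.011), on reads that are few for its copies, and not without control 1 (edgeR adjusted p = 0.0564).

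At the lower end, Pkm held 9970.4, 9903 and 9998 normalised reads in control and 6456, 6305 and 5597 in JTE (log2 fold change of −0.70 with SE 0.06, edgeR adjusted p = 4.7e-08). Ldha held 3460.1, 3503 and 3282 reads in control and 1892, 1775 and 1742 in JTE (log2 fold change of −0.92 with SE 0.07, edgeR adjusted p = 9.5e-09). Slc16a3, which carries lactate out of the cell, fell most of the glycolytic genes, from 158, 179 and 172 reads to 37.0, 39.8 and 46.5 (log2 fold change of −2.04 with SE 0.18, edgeR adjusted p = 1.2e-07). These 3 falls held in every JTE library. Pdk1 was called higher (log2 fold change of 0.21 with SE 0.09, edgeR adjusted p = 0.044), with overlapping groups. It was not called without wt 3, S1pr2 null 2, control 2 or control 3. Nor was it called without JTE 1, JTE 2 or JTE + CTGF 2 (edgeR adjusted p 0.051 to 0.174 over these fits). RLE size factors, DESeq2 and a fit with only the libraries compared also lost the call (adjusted p 0.0684 to 0.0825). So did a replicate block (edgeR adjusted p = 0.0559).

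Car9 had the largest change of all 35 genes in this comparison. It held 451, 521 and 356 normalised reads in control and 64.5, 62.3 and 42.8 in JTE (log2 fold change of −2.98 with SE 0.22, edgeR adjusted p = 1.1e-08). Ankrd37, a small ankyrin repeat protein, held 57.3, 64.3 and 48.9 reads in control and 18.0, 12.3 and 10.2 in JTE (log2 fold change of −2.08 with SE 0.24, edgeR adjusted p = 2.1e-06), and part of its counted bases overlap other genes. Egln3 went from 213, 241 and 265 to 109, 101 and 115 reads (log2 fold change of −1.14 with SE 0.13, edgeR adjusted p = 1.1e-06), a JTE level of 108 ± 7.14 beside 104 ± 17.4 in fresh wt pancreas (SD, n = 3 each). Its rise in culture and its fall with JTE013 share the control libraries.

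Other HIF targets rose. Vegfa held 2497, 2818 and 2163 normalised reads in control and 5799, 5469 and 4424 in JTE (log2 fold change of 1.07 with SE 0.11, edgeR adjusted p = 4.3e-07). Ndrg1 held 1067, 1124 and 931 against 2195, 2315 and 1931 reads (log2 fold change of 1.04 with SE 0.09, edgeR adjusted p = 8.7e-08), and P4ha2 held 400.3, 517 and 432 against 796, 858 and 929 (log2 fold change of 0.94 with SE 0.09, edgeR adjusted p = 2.9e-07). For these genes the groups stood clear of each other. P4ha1 rose less (log2 fold change of 0.37 with SE 0.09, edgeR adjusted p = 0.0031). Of the factors, Hif1a rose from 1504, 1501 and 1583 reads to 1999, 2225 and 2419 (log2 fold change of 0.53 with SE 0.07, edgeR adjusted p = 7.6e-06) and Epas1 was not called (edgeR adjusted p = 0.52), at 648 ± 60.8 against 618 ± 67.4 reads. Kdm3a, Adm, Bnip3 (a mitochondrial protein of mitophagy), Higd1a (a mitochondrial membrane protein) and Egln1 were not called either, with edgeR adjusted p from 0.23 to 0.99. Pgam1, a mutase, and Higd1a were called in none of the comparisons in the main edgeR fit. Pgam1 had a log2 fold change of −0.377 in control against wt (edgeR adjusted p = 0.0553). It was called lower there in 6 of 20 alternative fits, and in JTE against control with a replicate block (edgeR adjusted p = 0.0498).

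All 16 listed ATF4 targets were higher in JTE than in control (median log2 fold change 1.73), with a summed level of 76996 to 81269 against 20730 to 25187 normalised reads. Its top and bottom members by fold change were Trib3 (log2 fold change 4.89 ± 0.15 SE), a pseudokinase, and Shmt2 (0.44 ± 0.06 SE), an enzyme of serine metabolism. Leukocyte markers were lower for 6 of 6 genes (1019.9 to 1182.1 against 3114.8 to 3376 reads), endothelial markers for 6 of 8 (5260.6 to 5900.3 against 6909.8 to 8369.7), epithelial markers for 5 of 6 (21217 to 26507 against 33746 to 37999) and endocrine markers for 7 of 8 (12657 to 16507 against 58907 to 67448). The erythroid sum was 235 to 614 against 187 to 449 reads. Of the mesenchymal markers 2 of 8 were higher and 3 lower. What these shifts contribute to the changes of the glycolytic and HIF pathway genes was not tested.

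The comparison of JTE + CTGF with control repeats the question with CTGF present, and shares its control libraries with the comparison above. Eno2, Hk1, Pfkp, P4ha2, Ndrg1 and Vegfa rose, and Slc16a3, Pkm, Ldha, Car9, Ankrd37 and Egln3 fell. Of the glycolytic genes 6 were called higher and 8 lower, and of the other HIF pathway genes 7 higher and 4 lower, beside 28.1% of all genes higher and 33% lower. Median log2 fold changes were 0.03 for the glycolytic, 0.28 for the other HIF pathway and −0.03 for all genes, and the groups were apart for 14 and 10 genes, against 64.8% of all genes.

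Eno2 held 862, 665 and 649 normalised reads in JTE + CTGF (log2 fold change of 1.32 with SE 0.12, edgeR adjusted p = 6.3e-08). Hk1 held 1155, 918 and 953 reads (log2 fold change of 1.14 with SE 0.08, edgeR adjusted p = 2.5e-09), and Pfkp 394, 363 and 369.6 (log2 fold change of 0.94 with SE 0.12, edgeR adjusted p = 3.4e-06). All of these lay above every control library. Slc2a1 rose as well (log2 fold change of 0.54 with SE 0.08, edgeR adjusted p = 2e-05), while Hk2, at 461, 439.7 and 389.7 reads, was not called (log2 fold change of 0.13 with SE 0.08, edgeR adjusted p = 0.17). Aldoa (log2 fold change of 0.24 with SE 0.06, edgeR adjusted p = 0.0032) and Pdk1 (log2 fold change of 0.33 with SE 0.09, edgeR adjusted p = 0.0031) made up the rest of the rises. Slc16a3 had the largest fall of the glycolytic genes, at 26.3, 43.5 and 49.7 reads (log2 fold change of −2.09 with SE 0.19, edgeR adjusted p = 8.1e-08). Pkm held 4045, 4369.5 and 4284 reads (log2 fold change of −1.23 with SE 0.06, edgeR adjusted p = 5.1e-11), and Ldha 1925, 1972 and 2010 (log2 fold change of −0.79 with SE 0.07, edgeR adjusted p = 3.5e-08). Eno1 (−0.74), Pfkl (−0.59), Pfkfb3 (−0.59) and Tpi1 (−0.40) were also called lower, with the log2 fold changes in parentheses, and Aldoc (log2 fold change of −0.36 with SE 0.12, edgeR adjusted p = 0.018) was called but not without control 1 or JTE + CTGF 1 (edgeR adjusted p 0.0568 to 0.0867).

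Of the HIF pathway genes, Car9 held 72.0, 53.8 and 41.5 normalised reads (log2 fold change of −2.98 with SE 0.23, edgeR adjusted p = 1e-08), Ankrd37 11.4, 20.6 and 15.4 (log2 fold change of −1.84 with SE 0.24, edgeR adjusted p = 5e-06) and Egln3 117, 124 and 115 (log2 fold change of −1.02 with SE 0.13, edgeR adjusted p = 2.7e-06). Each was below all control libraries. P4ha2 at 1011, 925 and 1048 reads (log2 fold change of 1.14 with SE 0.09, edgeR adjusted p = 1.9e-08), Ndrg1 at 2409, 2219 and 2243 (log2 fold change of 1.14 with SE 0.09, edgeR adjusted p = 2.1e-08) and Vegfa at 5096, 4023 and 4225 (log2 fold change of 0.84 with SE 0.11, edgeR adjusted p = 4e-06) were above them all. P4ha1 (log2 fold change of 0.55 with SE 0.09, edgeR adjusted p = 7.5e-05), Hif1a (log2 fold change of 0.48 with SE 0.07, edgeR adjusted p = 1.5e-05) and Egln1 (log2 fold change of 0.34 with SE 0.06, edgeR adjusted p = 0.00026) rose less. Bnip3 was called (log2 fold change of 0.44 with SE 0.17, edgeR adjusted p = 0.037) with overlapping groups, and not without control 1, control 3, JTE + CTGF 1 or JTE + CTGF 3 (edgeR adjusted p 0.0644 to 0.263), or with only the libraries compared in the fit (adjusted p = 0.0591). Epas1 was called lower (log2 fold change of −0.28 with SE 0.09, edgeR adjusted p = 0.012), also with overlapping groups, and not without control 3, JTE + CTGF 1 or JTE + CTGF 3 (edgeR adjusted p 0.0527 to 0.0702). Beside these values stand 16 of 16 ATF4 targets higher (median 1.95), 6 of 6 leukocyte and 5 of 6 epithelial markers lower, and 5 of 8 erythroid markers higher. Of the 8 endothelial markers 2 were higher and 6 lower, and of the 8 endocrine markers 1 was higher and 7 lower. The part of these shifts was not tested.

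The comparison of JTE + CTGF with JTE asked what CTGF changed when added to the antagonist. Reads of Pkm and Hk2 fell, and no other member fell by the test. Of the glycolytic genes 5 were called higher and 2 lower, and of the other HIF pathway genes 1 higher and 0 lower in edgeR, beside 13.6% of all genes higher and 16.8% lower. Medians were 0.13 for the glycolytic, 0.11 for the other HIF pathway and 0 for all genes, and 11 and 2 genes had groups that did not overlap, against 40.2% of all genes. At an unadjusted edgeR p under 0.05, Egln1 and P4ha2 were higher and Vegfa and Epas1 lower among the other HIF pathway genes. The share of all genes at that threshold is not given here. DESeq2 at an adjusted p below 0.05 called Egln1 higher and 0 of these genes lower, beside 9.606% of all genes higher and 10.67% lower.

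Pkm held 6456, 6305 and 5597 normalised reads in JTE and 4045, 4369.5 and 4284 in JTE + CTGF (log2 fold change of −0.53 with SE 0.06, edgeR adjusted p = 5.4e-06). Hk2 held 628, 588 and 671 reads in JTE and 461, 439.7 and 389.7 in JTE + CTGF (log2 fold change of −0.55 with SE 0.08, edgeR adjusted p = 6.6e-05), near the 378, 403 and 395 reads of control. Both falls were called without any 1 library. The rises were small. Aldoa rose (log2 fold change of 0.22 with SE 0.06, edgeR adjusted p = 0.012), not called without JTE + CTGF 3 (edgeR adjusted p = 0.0508). Egln1 rose (log2 fold change of 0.24 with SE 0.06, edgeR adjusted p = 0.0095), not called without JTE + CTGF 3 (edgeR adjusted p = 0.0714). Pgk1 (log2 fold change of 0.41 with SE 0.13, edgeR adjusted p = 0.022) was not called without JTE 1, JTE + CTGF 2 or JTE + CTGF 3 (edgeR adjusted p 0.0712 to 0.0907). Aldoc (log2 fold change of 0.39 with SE 0.13, edgeR adjusted p = 0.032) was not called without JTE 3, JTE + CTGF 2 or JTE + CTGF 3 (edgeR adjusted p 0.0699 to 0.1), or with only the libraries compared in the fit (adjusted p = 0.0786). Pfkfb4 (log2 fold change of 0.30 with SE 0.11, edgeR adjusted p = 0.046) was not called without wt 1, S1pr2 null 1, S1pr2 null 2, JTE 1, JTE 2, JTE + CTGF 1, JTE + CTGF 2 or JTE + CTGF 3 (edgeR adjusted p 0.0535 to 0.151), or with DESeq2, with no filter on low counts or with only the libraries compared in the fit (adjusted p 0.0715 to 0.0982), and neither was Gpi1 (log2 fold change of 0.15 with SE 0.05, edgeR adjusted p = 0.042) without wt 3, S1pr2 null 1, S1pr2 null 2, S1pr2 null 3, JTE 1, JTE 2, JTE + CTGF 1, JTE + CTGF 2 or JTE + CTGF 3 (edgeR adjusted p 0.0545 to 0.0987), or with only the libraries compared in the fit (adjusted p = 0.0578). With a replicate block in the fit Pfkfb4 was not called either (edgeR adjusted p = 0.0599). The count of glycolytic genes called higher was thus 3 without S1pr2 null 1, S1pr2 null 2 or JTE 2. It was 2 without JTE 1, 1 without JTE + CTGF 2 and 0 without JTE + CTGF 3. The count of other HIF pathway genes called higher was 3 without JTE 3, 2 without control 2 or JTE + CTGF 2, and 0 without JTE + CTGF 3, and 1 was called lower without JTE 3, JTE + CTGF 1 or JTE + CTGF 2.

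Car9, Slc16a3 and Ankrd37 were not called in this comparison, with edgeR adjusted p = 0.99, 0.89 and 0.6 in that order. Their 3 libraries with CTGF held 72.0, 53.8 and 41.5, 26.3, 43.5 and 49.7 and 11.4, 20.6 and 15.4 normalised reads, from 10 to 63 raw reads a library. The SE of their log2 fold changes was 0.23 to 0.30, so a modest change was not detectable at this depth. Erythroid markers were higher with CTGF for 4 of 8 genes (1336.6 to 2261.5 against 235 to 614 reads), and the leukocyte sum was 806 to 1243.5 against 1019.9 to 1182.1 reads. Their part was not tested.

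Whether the genes moved differently with JTE013 in culture than with the genotype label in fresh tissue was tested as the difference of the 2 log2 fold changes. Of the 35 genes 11 had a higher and 12 a lower value for JTE013, which are 7 and 8 of the glycolytic and 4 and 4 of the other HIF pathway genes, beside 21.5% of all genes higher and 21.5% lower. The tissue was cultured dorsal bud in the JTE contrast and fresh pancreas in the other, so that antagonist or genotype and tissue or culture cannot be told apart.

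Pfkp fell with the genotype label and rose with JTE013, and the difference was 1.71 ± 0.18 (SE, edgeR adjusted p = 1.4e-06). Ndrg1 (1.52 ± 0.13 SE, edgeR adjusted p = 1.8e-07) and P4ha2 (1.37 ± 0.13 SE, edgeR adjusted p = 5.2e-07) did the same. Each was called in both contrasts with opposite signs, and so was Pdk1 (0.60 ± 0.12 SE, edgeR adjusted p = 0.00078). Its rise with JTE013 was not called without wt 3, S1pr2 null 2, control 2 or control 3. Nor was that rise called without JTE 1, JTE 2 or JTE + CTGF 2 (edgeR adjusted p 0.051 to 0.174 over these fits). RLE size factors, DESeq2 and a fit with only the libraries compared lost it too (adjusted p 0.0684 to 0.0825). A replicate block gave the same loss (edgeR adjusted p = 0.0559). Eno2 (1.41 ± 0.19 SE), Vegfa (1.2 ± 0.15 SE) and Hk1 (0.96 ± 0.11 SE) rose with JTE013 and were not called with the label, with edgeR adjusted p of the difference of 1.6e-05, 1.1e-05 and 3.6e-06. Slc2a1, Hk2, Hif1a and Gapdh were the other genes called higher, and Gapdh (0.78 ± 0.25 SE, edgeR adjusted p = 0.018) rests on few reads.

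Slc16a3 (−2.22 ± 0.24 SE, edgeR adjusted p = 1.8e-06) and Ankrd37 (−1.99 ± 0.31 SE, edgeR adjusted p = 8e-05) fell with JTE013 and were not called with the label. Car9 fell in both contrasts and further with JTE013 (−1.4 ± 0.29 SE, edgeR adjusted p = 0.00083), and so did Ldha (−0.56 ± 0.09 SE, edgeR adjusted p = 0.00015) and Tpi1 (−0.34 ± 0.10 SE, edgeR adjusted p = 0.0097). Eno1 (−1.41), Egln3 (−0.89), Pkm (−0.72) and Pfkl (−0.72) were lower by the log2 differences in parentheses. Kdm3a (−0.24 ± 0.08 SE) was not called without wt 3, S1pr2 null 2 or control 2 (edgeR adjusted p 0.0596 to 0.0947), or with no filter on low counts (adjusted p = 0.0556), Pfkfb4 (−0.48 ± 0.15 SE) not without wt 2, control 2 or JTE 1 (edgeR adjusted p 0.0503 to 0.0566), or with no filter on low counts (adjusted p = 0.0605), and Pgk1 (−0.48 ± 0.17 SE) not without wt 1, wt 3, S1pr2 null 2, S1pr2 null 3, control 1 or JTE 1 (edgeR adjusted p 0.0578 to 0.0966), or with no filter on low counts (adjusted p = 0.0537).

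**Figure D3:**
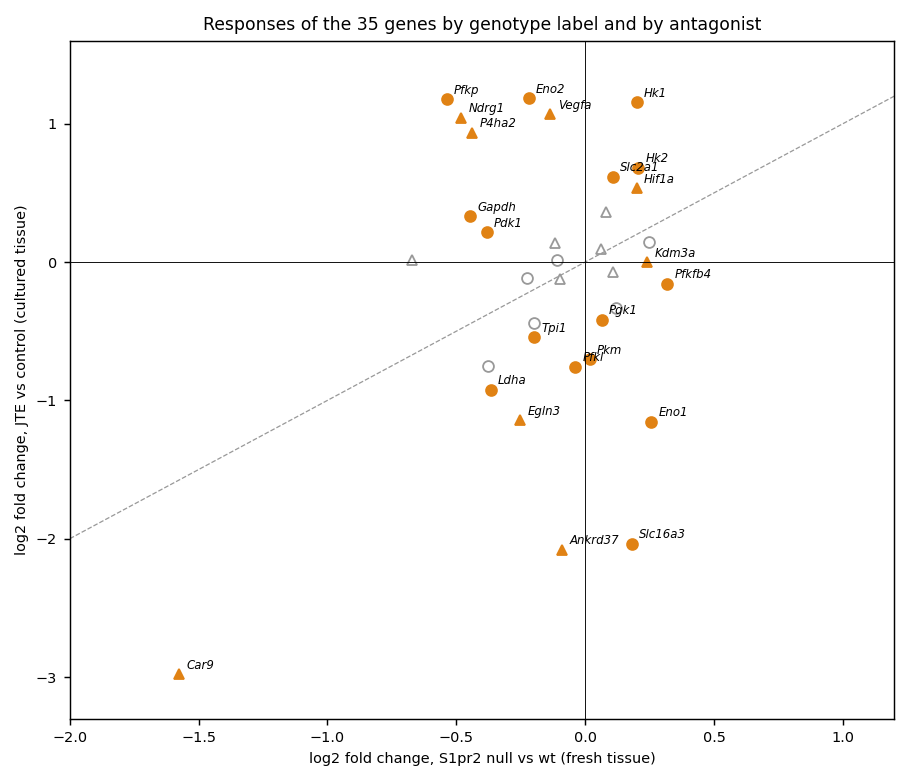
Log2 fold change of each of the 35 genes with JTE013 in culture (vertical) against that with the genotype label in fresh tissue (horizontal); circles are glycolytic and triangles other HIF pathway genes, filled and named where the difference was called, and the dashed line marks equal values. Car9 lies at −1.57 and −2.98, and Pfkp, Ndrg1 and P4ha2 lie in the upper left.

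Several steps of glycolysis and of the HIF pathway are shared by isoenzymes, whose shares of the summed RPKM of the listed members were followed over the groups. A share does not depend on the scaling between libraries, but its size depends on the counted lengths of the members. Of the hexokinases, Hk1 took 29.1% ± 1.21 in wt, 28.9% ± 0.633 in the libraries labelled S1pr2 null, 44.9% ± 1.61 in control, 53.1% ± 2.61 in JTE and 62.1% ± 2.35 in JTE + CTGF (SD, n = 3 each). Its libraries held 45.5, 43.1 and 46.1% in control, 52.6, 56.0 and 50.8% in JTE and 63.7, 59.4 and 63.1% in JTE + CTGF, and these 3 sets did not overlap. Per counted length, Hk2 was thus the larger of the pair in fresh tissue and Hk1 in treated explants. Which was larger per transcript was not determined, since the counted length of Hk1 can exceed that of its transcripts. Other hexokinases were not part of this share.

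Of the phosphofructokinases, Pfkl took 67.3% ± 1.76 in wt, 63.5% ± 1.02 in the libraries labelled S1pr2 null, 66.6% ± 2.17 in control, 49.6% ± 2.89 in JTE and 53.3% ± 1.76 in JTE + CTGF (SD, n = 3 each). Pfkp took 2.70% ± 0.101 in control and 7.68% ± 0.904 in JTE, and Pfkm the rest, at 30.7% ± 2.09 and 42.7% ± 2.46. Pfkm was not called in reads between these groups (edgeR adjusted p = 0.077). Among the regulators, the share of Pfkfb4 against Pfkfb3 was 25.5% ± 2.55 in wt, 32.9% ± 2.74 in the libraries labelled S1pr2 null, 35.9% ± 3.22 in control, 40.4% ± 1.97 in JTE and 48.2% ± 2.05 in JTE + CTGF.

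Aldoc took 3.93% ± 0.206 of the Aldoa and Aldoc level in wt, 7.39% ± 0.644 in control and 4.49% ± 1.0 in JTE. Egln3 took 12% ± 1.4 of the Egln1 and Egln3 level in wt, 9.94% ± 0.872 in the libraries labelled S1pr2 null, 29.9% ± 2.90 in control, 15.3% ± 0.912 in JTE and 14.4% ± 1.42 in JTE + CTGF, so that control stood apart from the 4 other groups. P4ha2 took 33.4% ± 0.830 of the P4ha1 and P4ha2 level in wt, 25.9% ± 0.338 in the libraries labelled S1pr2 null, 28.4% ± 1.80 in control, 37.4% ± 2.17 in JTE and 37.6% ± 1.45 in JTE + CTGF.

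**Figure D4:**
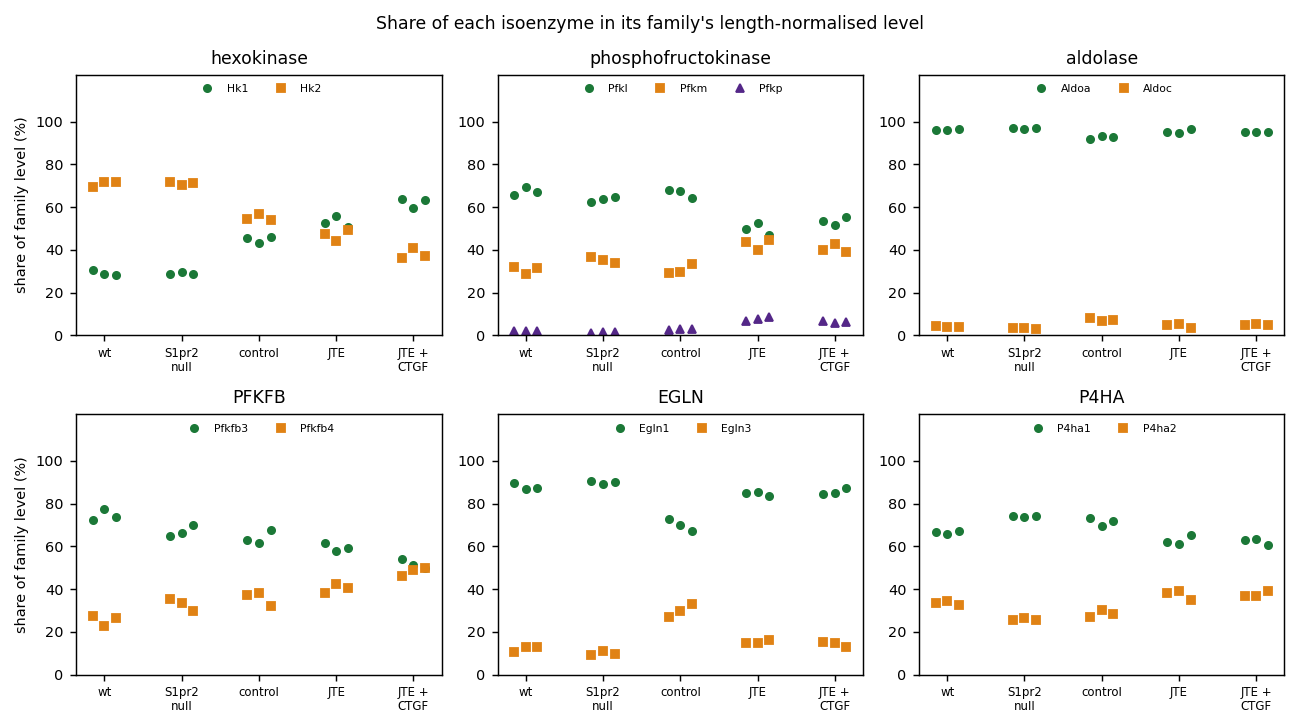
Share (vertical axis, percent) of each isoenzyme in the summed length-normalised level of its listed family, by library (points) in the 5 groups; enolase is left out for the uncertain level of Eno1. Hk1 has a mean of 29.1% in wt and 62.1% in JTE + CTGF, and Egln3 has its highest share in control.

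Further genes of glucose metabolism, 36 listed by name of which 35 were tested, moved in both directions too. With the genotype label 3 were called higher and 10 lower, with culture 11 and 11, and with JTE013 12 and 13. With JTE013 and CTGF against control the counts were 11 and 12, and with CTGF added to JTE013 6 and 2. All genes tested gave 12.6% higher and 13.3% lower with the label, 28.5% and 29.3% with culture, and 25.9% and 26.2% with JTE013. For JTE013 and CTGF against control the shares were 28.1% and 33%, and for CTGF added to JTE013 13.6% and 16.8%. The count lower with the label was 5 without wt 2, and those with CTGF added to JTE013 were 3 higher without JTE + CTGF 2, 2 higher and 1 lower without JTE + CTGF 3, and 1 lower without JTE 1. Slc2a4, the insulin-responsive glucose transporter, was lowest of the list in culture (log2 fold change of −1.0 with SE 0.24, edgeR adjusted p = 0.0019) and highest with JTE013 (log2 fold change of 1.82 with SE 0.23, edgeR adjusted p = 4.9e-06), and these comparisons share the control libraries. Pklr, the liver type of pyruvate kinase, fell beside Pkm with JTE013 (log2 fold change of −2.25 with SE 0.14, edgeR adjusted p = 1.5e-09).

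Of 31 further HIF targets, 6 were called higher and 6 lower with the genotype label. With culture the counts were 7 and 13, and with JTE013 10 and 9. With JTE013 and CTGF against control they were 16 and 9, and with CTGF added to JTE013 8 and 3. The shares of all genes were 12.6% higher and 13.3% lower with the label, 28.5% and 29.3% with culture, and 25.9% and 26.2% with JTE013. They were 28.1% and 33% for JTE013 and CTGF against control, and 13.6% and 16.8% for CTGF added to JTE013. The count higher with the label was 3 without S1pr2 null 3, and those with CTGF added were 5 higher without JTE 1, 13 higher without JTE 3, 5 lower without JTE + CTGF 1 and 1 lower without JTE 2 or JTE + CTGF 3. With JTE013 the lowest were Edn1, the vasoconstrictor endothelin, which held 57.6 ± 3.27 normalised reads in control and 5.14 ± 3.30 in JTE (log2 fold change of −3.49 with SE 0.29, edgeR adjusted p = 5e-08), and Flt1, a receptor for VEGF (log2 fold change of −1.46 with SE 0.13, edgeR adjusted p = 8.9e-08). The highest were Stc2, a secreted glycoprotein (log2 fold change of 2.40 with SE 0.10, edgeR adjusted p = 1.4e-11), and Hmox1, which degrades heme (log2 fold change of 0.74 with SE 0.16, edgeR adjusted p = 0.00092). In culture Stc1 (log2 fold change of 2.40 with SE 0.10, edgeR adjusted p = 5.7e-12) and Bhlhe40, a transcriptional repressor (log2 fold change of 2.16 with SE 0.11, edgeR adjusted p = 4.4e-11), rose most and Rbpj (log2 fold change of −1.63 with SE 0.11, edgeR adjusted p = 2.3e-09) fell most.

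Of the 10 genes of the HIF machinery, which partner, hydroxylate or degrade the factors, 2 were called higher with the genotype label. With culture 1 was higher and 6 lower, and with JTE013 4 and 2. With JTE013 and CTGF against control 5 and 1 were called, and with CTGF added to JTE013 4 and 3. Among all genes, 12.6% were higher and 13.3% lower with the label, 28.5% and 29.3% with culture, and 25.9% and 26.2% with JTE013. The shares were 28.1% and 33% for JTE013 and CTGF against control, and 13.6% and 16.8% for CTGF added to JTE013. The count higher with the label was 1 without S1pr2 null 1 or S1pr2 null 3, that lower with JTE013 was 1 without control 1 or JTE 2, and that lower with CTGF added was 1 without JTE 3 or JTE + CTGF 1. Hif3a, a further alpha subunit, changed with JTE013 by 0.47 ± 0.12 (SE, edgeR adjusted p = 0.0038). Arnt, the common partner, changed with JTE013 by 0.35 ± 0.05 (SE, edgeR adjusted p = 2.7e-05), and Arnt2, a related partner, by −0.70 ± 0.08 (SE, edgeR adjusted p = 1.6e-06). Protein and oxygen levels were not measured.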

How the data were processed

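Poly(A) RNA of 15 libraries was sequenced strand-specifically. The authors demultiplexed reads (bcl2fastq 1.8.4), aligned them with GSNAP to mm10 and deposited raw counts of uniquely aligned reads per gene (featureCounts 1.4.6). The counting strand is not given in the sources used here. Symbols were found for 24750 of 25292 IDs. Counts were tested with edgeR 4.0.16 (R 4.3.3, limma 3.58.1): TMM scaling, filterByExpr, 1 coefficient per group over all 15 libraries, quasi-likelihood F-test, Benjamini-Hochberg adjustment over 16245 genes. The difference of the JTE013 and genotype-label responses was a contrast of the same fit. The SE is the log2 fold change divided by the square root of F. The script was tested on simulated data. Named are up to 4 called genes at each end of each list per comparison, the isoenzymes, Hif1a and Epas1, and up to 2 genes at each end of other lists. Members left over by that rule were added after their values were seen. Members and lists were chosen with earlier results of these data known. Alternatives were RLE scaling, DESeq2 1.42.0, no filter, only the libraries compared, a replicate block, each library left out, and the criterion of the study (adjusted p at most 0.1, mean normalised count above 100, fold below 0.6 or above 1.6). Replicates were 3 independent samples a group by the study's methods. No batch or date was given in the labels. Figures used Python 3.11.15 and matplotlib 3.10.9. Some genes of the other lists are counted but not reported singly here.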

Additional observations from a re-analysis of the deposited data

How the results depend on the processing

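Of 2230 values of called genes and list medians in the alternative fits, 2120 kept direction and side of the threshold, 110 lost their call and 0 reversed, and 20 of 111 called results lost their call in at least 1 fit. The criterion of the study, a stricter call rule on fold and level, was not met by 53 of the 88 called results of the 5 pairwise comparisons, so that 56 of 111 lost their call in a fit or by the criterion. In the comparison of S1pr2 null with wt, glycolytic genes called higher numbered 1 with DESeq2, 1 with a replicate block and 0 by the criterion of the study, and 1 to 4 without 1 library, while other HIF pathway genes called higher numbered 1 with the replicate block, 0 by the criterion and 1 to 2 without 1 library. By the criterion 0 glycolytic and 1 other gene were lower there. For control against wt the criterion, which adds a minimum fold, gave 2 glycolytic genes higher and 4 lower and 1 other gene each way. For JTE against control it gave 5 glycolytic genes lower and 3 other genes higher. Hk1, Hk2, Pfkp and Eno2 met it as higher there, at folds of 2.23, 1.605, 2.263 and 2.276. Car9 and Egln3 met it as lower, at folds of 0.127 and 0.453. For JTE + CTGF against control it gave 3 glycolytic genes higher and 4 lower, and 3 other genes higher and 2 lower. For JTE + CTGF against JTE glycolytic genes called higher numbered 3 with only the libraries compared, 0 by the criterion and 0 to 6 without 1 library, and 0 were lower by the criterion. Other HIF pathway genes called higher there numbered 3 with no filter, 0 by the criterion and 0 to 3 without 1 library, and 0 to 1 were called lower. Apart from what the criterion's own construction shows, the cause was not tested. To look for pairing, the mean log level of its group was subtracted from each library, gene by gene. What was left correlated at −0.1078 to 0.2479 over 30 pairs of same-numbered libraries from different groups, with 2 above 0.1. The numbers were therefore not taken to pair the libraries. Genes with few reads, such as Adm and Ankrd37, are limited by depth.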
